A study of Mus musculus with 12 samples.

Results

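The outer dense fiber and fibrous sheath genes are 9 genes chosen by name: Odf1, Odf2, Odf3, Odf4, Akap3, Akap4, Spa17, Ropn1 and Ropn1l. They are 9 of the 37675 genes listed for each library, and all 9 were among the 16860 genes that passed the filter on low counts and were tested. RNA-seq measured them in the whole testis of inbred C57BL/6NHsd mice at postnatal day (PND) 7, 14, 17, 21 and 28. Each age had 2 mice, and the labels name no treatment and no altered gene. In these weeks germ cells pass through spermatogenesis for the first time, so that each age adds later cell types to the same organ. By the study's account the germ cells at PND 7 are spermatogonia. Spermatocytes come in by PND 14 and their later stages by PND 17, round spermatids by PND 21 and elongating ones by PND 28.

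The sperm tail is built in spermatids around a central axoneme, the bundle of microtubules that bends. The outer dense fibers are stiff rods that run along the axoneme, and the fibrous sheath is a cage of columns and ribs around the principal piece that anchors protein kinase A and enzymes of glycolysis. Odf1 and Odf2 code for proteins of the fibers, Akap3 and Akap4 for the A-kinase anchoring proteins that make up much of the sheath, and Spa17, Ropn1 and Ropn1l for proteins with a dimerization domain like that of the regulatory subunits of protein kinase A, which binds such anchors.

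In the mm9 build the annotation places Odf1 (ENSMUSG00000061923) at chr15:38148958-38156490, Odf2 (ENSMUSG00000026790) at chr2:29744741-29787266, Odf3 (ENSMUSG00000025482) at chr7:148033704-148036917 and Odf4 (ENSMUSG00000032921) at chr11:68735337-68740583. The anchors lie at chr6:126803116-126824325 (Akap3, ENSMUSG00000030344) and chrX:6644645-6655735 (Akap4, ENSMUSG00000050089). Spa17 (ENSMUSG00000001948) lies at chr9:37410886-37421199, Ropn1 (ENSMUSG00000022832) at chr16:34650007-34678704 and Ropn1l (ENSMUSG00000022236) at chr15:31370965-31383444. All 9 are protein coding, and the values cover all exons of a gene. Inside Odf2 the annotation has a U6 small nuclear RNA with 0 to 8 counts in a mouse, and inside Ropn1l the pseudogene Gm6361 with 0 counts in every mouse.

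RefSeq promoters, 250 bases before to 50 after a start in GRCm38.p6, another build than that of the counts, were matched by symbol for 8 of the 9 genes in 13 entries, and Odf1 was not matched. Akap3 and Akap4 are shown because their promoters share a run of 20 bases, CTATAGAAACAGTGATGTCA, on the same strand. The run (capitals) begins 34 bases before the start of Akap3 and 47 bases before that of Akap4.

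Akap3 (chr6:126852848-126853147, plus strand): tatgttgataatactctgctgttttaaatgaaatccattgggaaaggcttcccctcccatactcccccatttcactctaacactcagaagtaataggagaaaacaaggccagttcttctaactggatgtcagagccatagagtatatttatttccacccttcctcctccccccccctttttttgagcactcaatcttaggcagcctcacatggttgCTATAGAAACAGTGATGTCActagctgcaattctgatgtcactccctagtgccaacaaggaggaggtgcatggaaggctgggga
Akap4 (chrX:7067265-7067564, plus strand): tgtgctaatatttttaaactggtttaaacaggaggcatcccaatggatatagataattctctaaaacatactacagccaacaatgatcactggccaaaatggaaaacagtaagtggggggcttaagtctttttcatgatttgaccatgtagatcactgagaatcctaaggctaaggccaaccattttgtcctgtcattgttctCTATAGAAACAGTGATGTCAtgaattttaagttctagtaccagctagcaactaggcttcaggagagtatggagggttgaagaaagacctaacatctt

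Of 32851 promoters in the table, 2 held this run on either strand, those of Akap3 and Akap4. Among the 70 pairs of promoters of different genes of the set, the next longest shared run had 14 bases and the median was 9. The run ends in TGATGTCA. TGATGTCA was in 3.62% of all promoters, and in the set it was found in the same Akap3 and Akap4 promoters alone, with a further copy in Akap3 that begins 1 base before the start. The run was noticed by reading the promoters, and whether it has a function was not tested.

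The CRE TGACGTCA, the cAMP response element to which CREM, a transcription factor of spermatids, binds, was in 1.79% of all promoters and in none of the 13 of the set, searched on both strands, and TATAAA was in 13.6% of all and in none of the set. The CRE core TGACG (20.8% of all promoters, and part of the full CRE) was found for Odf2 only. GTTGCC, a core of the X-box to which RFX factors bind (12.5% of all), was found for Odf3, beginning 65 bases before the start, and for Ropn1l, 20 bases before it. TGACG was in 2 of the 13 entries, which overlap and hold the same sites, and GTTGCC was also in 2. Odf2 and Ropn1l are shown as examples, with these letters in capitals. Whether these letters bear on the levels was not tested.

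Odf2 (chr2:29889470-29889769, plus strand, TGACG in capitals): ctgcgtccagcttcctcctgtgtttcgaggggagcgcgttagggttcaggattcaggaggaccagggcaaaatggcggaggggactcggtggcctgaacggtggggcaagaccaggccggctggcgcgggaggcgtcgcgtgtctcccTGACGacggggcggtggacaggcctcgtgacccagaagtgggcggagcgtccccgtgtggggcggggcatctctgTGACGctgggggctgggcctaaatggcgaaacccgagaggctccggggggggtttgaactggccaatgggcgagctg
Ropn1l (chr15:31453640-31453939, minus strand, GTTGCC in capitals): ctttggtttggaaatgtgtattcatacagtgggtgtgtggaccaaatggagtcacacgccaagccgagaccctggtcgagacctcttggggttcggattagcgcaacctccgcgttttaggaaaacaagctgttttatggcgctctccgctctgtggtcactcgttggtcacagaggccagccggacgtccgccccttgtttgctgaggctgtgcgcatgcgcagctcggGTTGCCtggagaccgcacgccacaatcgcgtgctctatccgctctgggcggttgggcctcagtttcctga

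The promoters also differed in base composition. G and C made up 68.0% to 74.3% of the bases in the 4 entries of Odf2, 63.3% in both entries of Spa17 and 58.0% in Ropn1l, and 38.3% and 47.0% in the entries of Akap4, 43.7% in Ropn1 and 45.3% in Akap3. The median of all promoters was 52.7%, with Odf3 (55.3%) and Odf4 (50.7%) close to it.

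The libraries held between 3994026 and 13559548 counts per mouse, with the fewest in PND 17 mouse 2 and PND 21 mouse 1. The total of the PND 7 mice joins the barcodes under which each was sequenced. Of the markers of other cells in the testis, those of Sertoli cells were present throughout, with a summed level between 337 and 1824 CPM, counts scaled to a common library size after TMM, a normalization of edgeR. At PND 7 the 8 markers of elongating spermatids summed to 0.601 CPM in mouse 1 and were at 0 in mouse 2.

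PND 14 mouse 1 stood apart in genes of late germ cells, and it also differed from PND 14 mouse 2 in some markers of Sertoli cells. The summed level of the 8 markers of elongating spermatids was 216.8 CPM in that mouse, 9.07 CPM in PND 14 mouse 2, 11.1 and 10.9 CPM at PND 17 and 87.6 and 74.8 CPM at PND 21. All 8 were higher in PND 14 mouse 1 than in mouse 2, as were 8 of 8 markers of round spermatids and 0 of 8 markers of spermatocytes. Of the Sertoli cell markers 6 of 7 were higher in mouse 1, with a sum of 1469 CPM against 694.6 in mouse 2. Most of each sum was Clu (1153 and 441.0 CPM). The ratio of mouse 1 to mouse 2 was 2.48 to 2.61 for Amh, Fshr and Clu, 1.83 for Sox9 and 1.39 for Dhh. It was 1.01 for Wt1 and 0.937 for Gata4. The sum was 1824 and 1565 CPM at PND 7 and 665.4 and 947.1 CPM at PND 17. The part of Sertoli cells in the results below was not tested. The summed level of 6 markers of the epididymis was highest in PND 7 mouse 2 (153.3 CPM) and PND 17 mouse 1 (371.6 CPM). It was at most 5.59 CPM in any other mouse. These markers did not move together. In the mean of the PND 17 mice Crisp1 and Spink8 stood at 15433% and 4843% of their PND 28 mean CPM, while Lcn8, Lcn9 and Defb41 were at 0.

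Of all counts of a mouse, the 9 genes together took 0.00339% and 0.00573% at PND 7 and 0.503% and 0.585% at PND 28. In between they took 0.0440% and 0.0254% at PND 14, 0.0351% and 0.0242% at PND 17 and 0.173% and 0.101% at PND 21. The 95% Wilson intervals, which cover counting error only, ran from 0.00304% to 0.00377% in PND 7 mouse 1 and from 0.579% to 0.592% in PND 28 mouse 2. The mice of PND 14 and PND 17 overlapped, and all other ages stood in order without overlap. In RNA of a whole organ, fewer cells of a type and less RNA per cell cannot be told apart, and this holds for every value below.

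**Figure D1:**
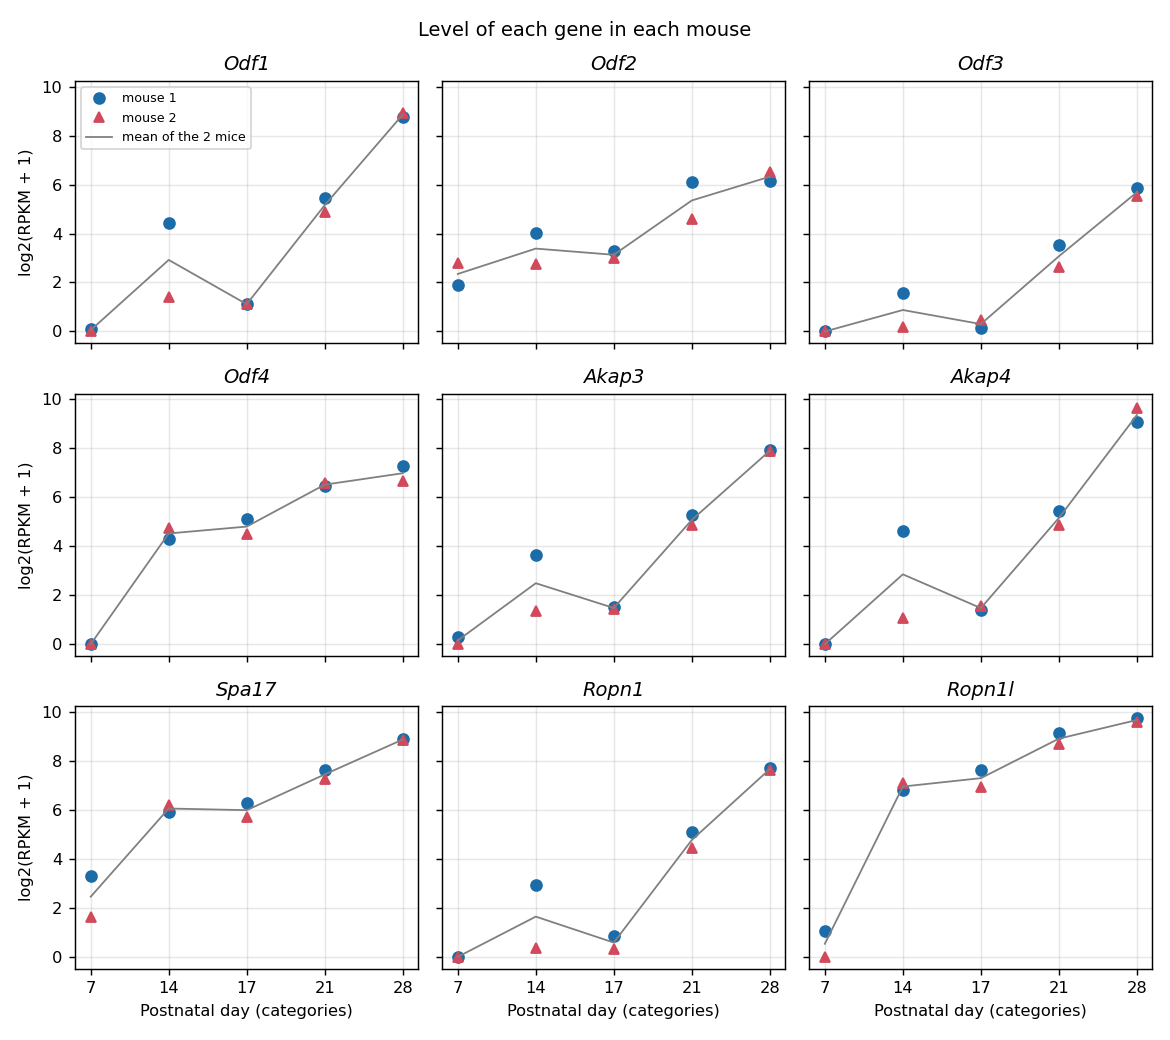
Level of each of the 9 genes in each mouse, as log2(RPKM + 1) on the vertical axis against postnatal day as evenly spaced categories, with circles for mouse 1, triangles for mouse 2 and a line through the mean of the 2 mice. Odf4, Spa17 and Ropn1l stood high from PND 14 on, while Odf1, Akap3, Akap4 and Ropn1 were low in all mice before PND 21 except PND 14 mouse 1. Odf3 was low in all mice before PND 21, with its highest value there, 1.96 RPKM, in PND 14 mouse 1.

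Differential expression (DE) between ages was tested on the counts with edgeR's quasi-likelihood test in a fit of all 10 mice, and a gene counted as DE where its p, adjusted by Benjamini and Hochberg over all genes tested, was under 0.05 and it changed at least 2-fold. With 2 mice against 2, an exact two-sided permutation test of a single gene cannot go below 0.333. Each call therefore rests on a spread that edgeR estimates from all 10 mice and in part across genes. A gap between the mice of an age thus also enters the tests of other ages. Levels are given as the authors' RPKM, which divides a gene's reads by the length of its exons and by the reads of the library, and fold changes on edgeR's log2 scale with their SE.

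Odf1 codes for the main small protein of the outer dense fibers. Its RPKM was 0.08 and 0 at PND 7, 20.3 and 1.69 at PND 14, 1.17 and 1.16 at PND 17, 42.7 and 28.1 at PND 21 and 436.7 and 487.7 at PND 28, for mouse 1 and mouse 2. Leaving out PND 14 mouse 1, every mouse before PND 21 was under 2 RPKM and every mouse from PND 21 on was above 28, with no overlap of PND 17, PND 21 and PND 28. From PND 17 to PND 21 Odf1 rose by 5.01 ± 0.85 (adjusted p = 0.00583), and from PND 21 to PND 28 by 3.95 ± 0.69 (adjusted p = 0.00525). A single read was counted for it in the PND 7 mice, so the ratio of PND 28 to PND 7 has a counting interval from 1858 to 409055 around 10355.

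Odf2 codes for a larger fiber protein that is also part of centrosomes in other cells. Its RPKM was 2.77 and 5.88 at PND 7, 15.1 and 5.79 at PND 14, 8.62 and 6.97 at PND 17, 68.4 and 22.9 at PND 21 and 69.8 and 89.1 at PND 28. PND 14 overlapped with both PND 7 and PND 17, while both PND 28 mice stood above both PND 21 mice. Of the comparisons between consecutive ages Odf2 was DE in PND 17/21 only, with a log2 fold change of 2.62 ± 0.53 (adjusted p = 0.0114). The PND 21 mice differed by 2.63 times in Odf2 (CPM). The other 8 genes differed by 1.14 to 1.81 times between these mice. Of its 69 annotated exons, 55 and 53 had more than 10 reads at PND 21, and its deposited length of 9922 bases joins the exons of 28 transcripts, so its RPKM is per base of all these exons. The higher PND 7 mouse was mouse 2, where the summed markers of the epididymis were also higher, and their part in the level was not tested.

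Odf3 codes for a protein named for the outer dense fibers and present along the tail. It had 0 counts in both PND 7 mice, and its RPKM was 1.96 and 0.14 at PND 14, 0.11 and 0.37 at PND 17, 10.5 and 5.12 at PND 21 and 56.5 and 44.8 at PND 28. Its mean was the lowest of the 9 genes at every age from PND 14 on. Its range overlapped those of Ropn1, Akap3, Odf1 and Akap4 at PND 14 and that of Ropn1 at PND 17. Its mice of PND 17, 21 and 28 did not overlap. The change from PND 17 to PND 21 was 5.47 ± 0.90 (adjusted p = 0.00616) and that from PND 21 to PND 28 was 2.96 ± 0.60 (adjusted p = 0.0146).

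Odf4 codes for a membrane protein of the testis named for the fibers. With 0 counts in both PND 7 mice, its RPKM was 18.7 and 25.7 at PND 14, 33.4 and 21.6 at PND 17, 86.4 and 94.3 at PND 21 and 155.4 and 100.6 at PND 28. PND 14 and PND 17 overlapped and the other ages did not. Both PND 14 mice were far above the PND 7 level, at least 107-fold for the lower mouse against a floor of 3 counts over both PND 7 mice. Odf4 rose by 1.83 ± 0.32 in PND 17/21 (adjusted p = 0.00797) and was not DE in PND 21/28, where the value was 0.72 ± 0.31 (adjusted p = 0.192).

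Akap3 codes for the anchoring protein of the ribs of the sheath. Its RPKM was 0.24 and 0 at PND 7, 11.4 and 1.55 at PND 14, 1.86 and 1.71 at PND 17, 37.9 and 28.1 at PND 21 and 241.6 and 232.8 at PND 28. The PND 28 mice lay within 1.05 times of each other in CPM and far above all others. Akap3 rose by 4.30 ± 0.73 in PND 17/21 (adjusted p = 0.00561) and by 3.08 ± 0.65 in PND 21/28 (adjusted p = 0.0142).

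Akap4, on the X chromosome, codes for the most abundant protein of the sheath. It had 0 counts in both PND 7 mice, and its RPKM was 23.9 and 1.09 at PND 14, 1.61 and 1.95 at PND 17, 42.5 and 28.1 at PND 21 and 530.3 and 801.6 at PND 28. PND 17, 21 and 28 did not overlap, and PND 14 mouse 1 lay close to the lower PND 21 mouse. Of all 9 genes Akap4 had the largest fitted rise in PND 21/28, 4.48 ± 0.96 (adjusted p = 0.0186), after 4.44 ± 1.02 in PND 17/21 (adjusted p = 0.0223). Its mean at PND 28 was at least 13775-fold above the floor of the PND 7 mice.

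Spa17 codes for a sperm surface and tail protein that can bind A-kinase anchors and is also made outside the testis. Its RPKM was 8.78 and 2.08 at PND 7, 59.8 and 71.9 at PND 14, 76.8 and 50.8 at PND 17, 197.3 and 152.7 at PND 21 and 480.0 and 455.1 at PND 28. PND 17 spanned PND 14, and otherwise no ages overlapped. It rose in PND 7/14 by 3.39 ± 0.47 (adjusted p = 0.000616), in PND 17/21 by 1.55 ± 0.41 (adjusted p = 0.0336) and in PND 21/28 by 1.65 ± 0.40 (adjusted p = 0.0293). The call in PND 17/21 held in 4 of 10 fits that left out a mouse, with an adjusted p of up to 0.276, and was lost without any single mouse of PND 17, 21 or 28.

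Ropn1 codes for ropporin, which binds rhophilin and the anchors of the sheath. Like Akap4 it had 0 counts in both PND 7 mice, and its RPKM was 6.56 and 0.29 at PND 14, 0.78 and 0.26 at PND 17, 33.1 and 20.8 at PND 21 and 209.1 and 195.0 at PND 28. PND 14 mouse 2 and both PND 17 mice were under 1 RPKM. It rose by 5.46 ± 0.88 in PND 17/21 (adjusted p = 0.00561) and by 3.15 ± 0.63 in PND 21/28 (adjusted p = 0.0132).

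Ropn1l codes for a relative of ropporin that is also a protein of the radial spokes, the arms inside the axoneme. Its RPKM was 1.10 and 0 at PND 7, 111.8 and 135.1 at PND 14, 199.0 and 122.3 at PND 17, 557.6 and 411.1 at PND 21 and 852.3 and 774.6 at PND 28. Both PND 14 mice were above 100 RPKM, an age at which its relative Ropn1 was under 7 in both. Ropn1l rose by 7.57 ± 0.60 in PND 7/14 (adjusted p = 2.02e-05) and by 1.70 ± 0.40 in PND 17/21 (adjusted p = 0.0224), and the value in PND 21/28, 0.98 ± 0.39, was not DE (adjusted p = 0.159).

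The order of the levels per length changed with age. Spa17 (mean 5.43 RPKM) and Odf2 (4.33 RPKM) were the highest at PND 7, with overlapping mice. Ropn1l, Spa17 and Odf4 had the highest means at PND 14, 17 and 21, in this order and with no overlap among the 3. In PND 14 mouse 1 Akap4 (23.9 RPKM) and Odf1 (20.3 RPKM) were above Odf4 (18.7 RPKM). At PND 28 Ropn1l (813.5 RPKM) and Akap4 (665.9 RPKM) led with overlapping mice, followed by Spa17 (467.6 RPKM) and Odf1 (462.2 RPKM), which also overlapped. The ratio of Ropn1l to Akap4 in RPKM was 124 and 62.6 in the PND 17 mice, 13.1 and 14.6 at PND 21 and 1.61 and 0.966 at PND 28.

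**Figure D2:**
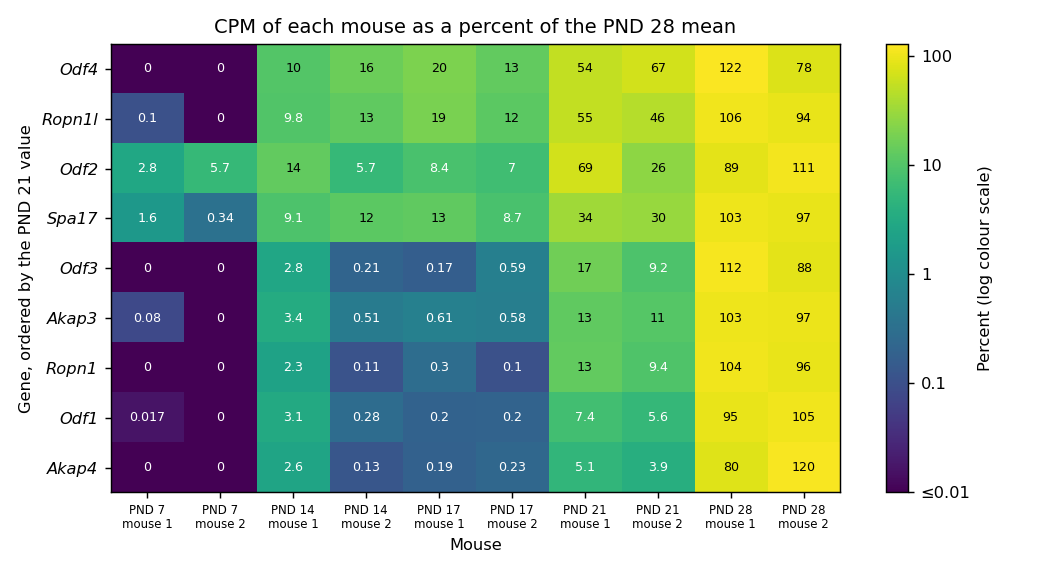
CPM of each gene (rows, ordered by the PND 21 value) in each mouse (columns) as a percent of the gene's mean CPM at PND 28, printed in each cell and coloured on a log scale. At PND 21 the genes ranged from a mean of 4.49% for Akap4 to 60.6% for Odf4, and PND 14 mouse 1 held 2.32% to 3.42% of the PND 28 mean for the 5 genes in the lower rows.

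Relative to its own PND 28 mean CPM, each gene had reached a different level by PND 21. Odf4 stood at 60.6%, Ropn1l at 50.5%, Odf2 at 47.7% and Spa17 at 31.8%. Odf3 stood at 12.9%, Akap3 at 11.8%, Ropn1 at 11.3%, Odf1 at 6.49% and Akap4 at 4.49%. At PND 17 they lay in separate ranges, with Odf4, Ropn1l, Spa17 and Odf2 between 7.73% and 16.9% and the other 5 between 0.199% and 0.593%.

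Over the whole span, PND 7/28, all 9 genes were DE and higher at PND 28, beside 32.2% of all genes tested that were higher. For the 4 genes with more than 1 read at PND 7 the log2 fold change was 4.56 ± 0.58 for Odf2, the smallest of the set, 6.64 ± 0.52 for Spa17, 10.71 ± 0.65 for Ropn1l and 11.07 ± 1.01 for Akap3, of which the last pair had reads in PND 7 mouse 1 alone. For the genes at 0 at PND 7 the mean at PND 28 was at least 716-fold (Odf3), 1023-fold (Odf4) and 1350-fold (Ropn1) above the floor. With these genes at their bound the median log2 fold change of the set was 10.40, against 0.10 over all genes.

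In PND 7/14, 8 of the 9 genes were DE and higher at PND 14, beside 13.5% of all genes. The exception was Odf2, with a log2 fold change of 1.18 ± 0.51 (adjusted p = 0.120). The median of the set with zero groups at their bound was 5.41, against 0.11 over all genes. Odf4, Spa17 and Ropn1l were far above PND 7 in both PND 14 mice. Odf3 and Ropn1 had 2 counts each in PND 14 mouse 2, fewer than the floor, and their mean over both mice was at least 10.7-fold and 16.4-fold above the PND 7 floor. Without PND 14 mouse 1, 6 genes were DE beside 11.6% of all genes, since Odf3 (adjusted p = 0.192) and Ropn1 (adjusted p = 0.125) were not. Their calls were also lost without either PND 7 mouse, and without PND 14 mouse 2 the 8 genes were DE beside 10.0% of all genes.

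In PND 14/17 none of the 9 genes was DE, and neither was any of the 16860 genes (0.0% of them). At an unadjusted p under 0.05 there were 769 genes, with 5 of the set among them (Odf1, Odf3, Akap3, Akap4 and Ropn1), and DESeq2 also called 0 of the set and 1 gene in all. Without the filter on low counts, these 5 were DE and lower at PND 17, beside 0.78% of all genes. The fitted log2 fold changes of these 5 lay between -3.12 (Odf1) and -1.73 (Akap3), and PND 17 overlapped with PND 14 for each but Odf1. Without PND 14 mouse 1 they were -0.51 for Odf1 and between 0.23 (Akap3) and 1.09 (Ropn1) for the others, again with 0 DE. Without PND 14 mouse 2, so that mouse 1 alone stood for PND 14, 4 of the set (Odf1, Akap3, Akap4 and Ropn1) were DE and lower at PND 17, beside 0.934% of all genes. The values of Odf4 (0.39 ± 0.32), Spa17 (0.04 ± 0.40) and Ropn1l (0.46 ± 0.39) were smaller in size and above 0.

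**Figure D3:**
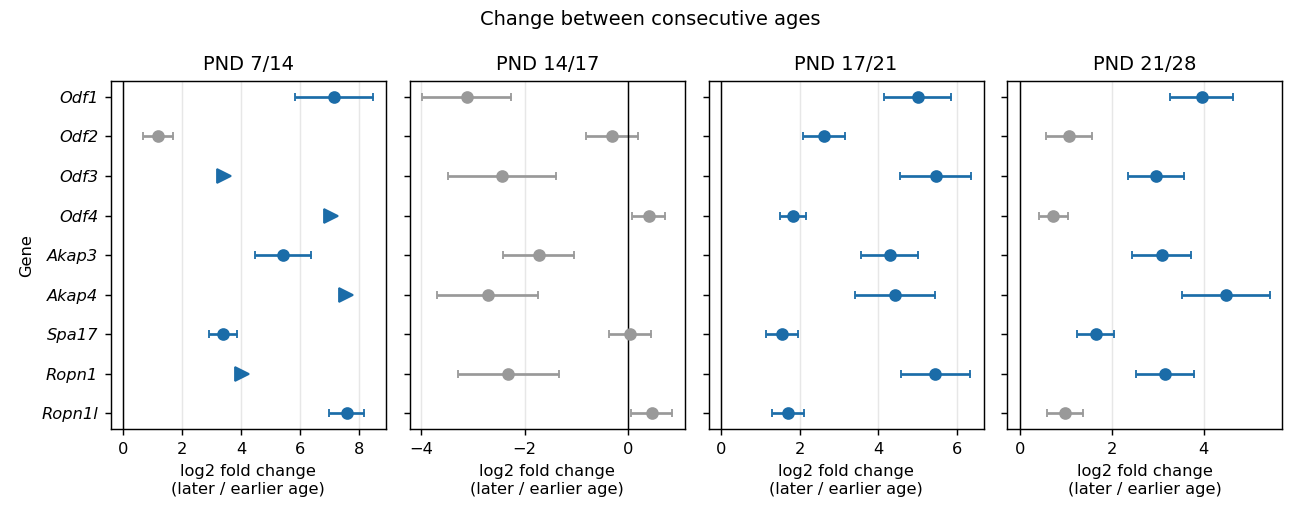
Fitted log2 fold change (later over earlier age, points with bars of 1 SE) of the 9 genes in the comparisons of consecutive ages, blue where DE and grey where not, with right-pointing triangles for lower bounds where both PND 7 mice had 0 counts. All 9 genes were DE in PND 17/21 and 6 in PND 21/28, and the values in PND 14/17 split into 5 genes below -1.7 and 4 genes between -0.31 and 0.46.

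In PND 17/21 all 9 genes were DE and higher at PND 21, beside 9.29% of all genes, and both PND 21 mice were above both PND 17 mice for each of the 9, as for 33.8% of all genes. The median log2 fold change of the set was 4.30, against 0.00 over all genes. Odf1, Odf3, Akap3, Akap4 and Ropn1 rose by 4.30 to 5.47, and Odf2, Odf4, Spa17 and Ropn1l by 1.55 to 2.62. With 1 mouse at an age fewer genes were DE. Their number was 1 without PND 17 mouse 1 (Odf4), 1 without PND 17 mouse 2 (Odf3) 5 without PND 21 mouse 1 and 8 without PND 21 mouse 2, while all 9 values stayed positive, between 1.31 and 6.65.

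In PND 21/28, 6 of the 9 genes were DE and higher at PND 28, beside 7.37% of all genes. These were Odf1, Odf3, Akap3, Akap4, Spa17 and Ropn1, and the median of the set was 2.96, against 0.03 over all genes. The 3 others, Odf2 (1.07 ± 0.50, adjusted p = 0.225), Odf4 and Ropn1l, also had both PND 28 mice above both PND 21 mice, as had 32.9% of all genes. Without either PND 21 mouse 0 of the set were DE, and without either PND 28 mouse only Odf1 was, with all values of the 6 between 1.56 and 4.73.

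Whether the last step was larger or smaller than the one before was tested directly, as the difference of the 2 log2 fold changes. None of the 9 genes passed, beside 0.0356% of all genes (6 genes), and 0 of the set had an unadjusted p under 0.05, beside 1489 of all 16860 genes. Without the filter on low counts Ropn1 passed, with a smaller last step, beside 1.07% of all genes that were lower. The values ran from -2.50 ± 1.27 for Odf3 to 0.10 ± 0.69 for Spa17, with Akap4 at 0.04 ± 1.70. The calls of Odf2, Odf4 and Ropn1l in PND 17/21 and not in PND 21/28 thus do not show that their steps differed.

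The higher levels in PND 14 mouse 1 covered 6 of the 9 genes. In CPM, Akap4 was 61.0 in mouse 1 and 3.02 in mouse 2, Odf1 18.9 and 1.71, Akap3 30.2 and 4.47, Ropn1 5.39 and 0.263, Odf3 3.41 and 0.263 and Odf2 125.9 and 52.4. For Odf4 (18.4 and 27.3), Spa17 (29.1 and 37.9) and Ropn1l (85.7 and 112.3) mouse 1 was the lower. More than 10 reads fell on 7 of 11 exons of Akap4 in mouse 1 and on 1 in mouse 2. In mouse 1 this held for 2 of 2 exons of Odf1 and 50 of 69 of Odf2. It held there for fewer exons of Akap3 (2 of 6), Ropn1 (2 of 8) and Odf3 (3 of 12).

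In PND 14 mouse 1, Odf1, Odf3, Akap3, Akap4 and Ropn1 stood at 2.32% to 3.42% of their PND 28 mean, and the 8 markers of elongating spermatids at 2.22% to 7.42%. In mouse 2 the markers stood at 0 to 0.239%. The 5 genes of the set were lower in this mouse than their PND 21 means. Of the markers, Prm3 (4.12% against 7.58%), Smcp (7.10% against 8.72%) and Oaz3 (3.05% against 4.66%) were lower than their PND 21 means too, while Prm1, Prm2, Tnp1 and Tnp2, which pack DNA, and Spem1 were higher, at 2.22% to 7.42% against 0.485% to 1.19%. The ratio of Akap3 to Odf1 in RPKM was 0.558 in PND 14 mouse 1 (95% counting interval 0.460 to 0.680), 0.887 and 1.00 at PND 21 and 0.553 and 0.477 at PND 28. The ratio of Akap4 to Akap3 was 2.11 (1.82 to 2.44) in that mouse, 1.12 and 0.999 at PND 21 and 2.20 and 3.44 at PND 28. Not all other ratios in that mouse lay nearest those of PND 28. Ropn1l to Ropn1 was 17.1 in that mouse, 16.8 and 19.7 at PND 21 and 4.08 and 3.97 at PND 28. Odf1 to Odf2 was 1.35, then 0.624 and 1.23, and 6.25 and 5.47. Akap4 to Odf1 was 1.18 (0.989 to 1.40), then 0.994 and 1.00, and 1.21 and 1.64. This interval covers all of these later values but 1.64. Ropn1l to Akap4 was 4.68, then 13.1 and 14.6, and 1.61 and 0.966. Of the 1242 genes higher in PND 21/28, 894 were higher in PND 14 mouse 1 than in mouse 2, with a median ratio of 1.44, beside 8542 of all 16860 genes and a median of 1.00. What sets this library apart was not tested.

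**Figure D4:**
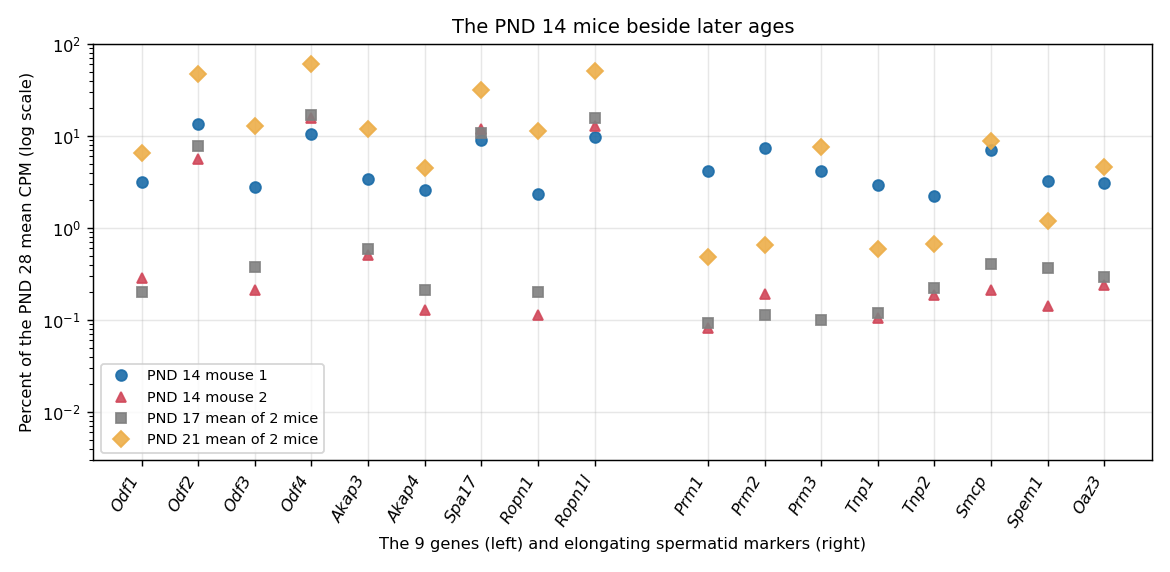
Level as a percent of the mean CPM at PND 28 (log axis) for the 9 genes on the left and the markers of elongating spermatids on the right, in PND 14 mouse 1, PND 14 mouse 2 and the means of the 2 mice at PND 17 and at PND 21. Mouse 1 lay above mouse 2 for 6 of the 9 genes and for all 8 markers, where Prm3, at 0 in mouse 2, has no point.

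Genes with the pattern most like that of Odf1 and Akap4 were taken by Pearson's r of log2(CPM + 1) over the 10 mice, among the 10364 genes that averaged 10 CPM or more. For Odf1 these were Gsg1 (r = 0.999), Spata19 (r = 0.998) and Atp1a4 (r = 0.998), and for Akap4 Spz1, Gsg1 (both r = 0.997) and Atp1a4 (r = 0.996). These places depended on the measure. By Spearman's rank correlation Gsg1 and Spata19 both came at place 164 for Odf1 and Atp1a4 at 82. For Akap4 the places were 95 for Spz1, 226 for Gsg1 and 1 for Atp1a4. Gsg1 is named for germ cells, Spata19 codes for a sperm mitochondrial protein, Atp1a4 for the sodium pump subunit of sperm and Spz1 for a transcription factor of the testis. The RPKM of Gsg1 was 0 in both PND 7 mice, 18.4 and 1.29 at PND 14, 1.46 and 1.15 at PND 17, 33.2 and 24.0 at PND 21 and 361.7 and 340.9 at PND 28. Gsg1 was also higher in PND 14 mouse 1 than in mouse 2, which its choice by r over these same mice favours. Within the set, Odf1 had an r of 0.993 with Akap4 (place 27), 0.991 with Ropn1 (place 37), 0.989 with Akap3 (place 54) and 0.988 with Odf3 (place 56). Its r was 0.794 with Odf4 (place 2347) and 0.771 with Ropn1l (place 2616). Genes outside the set thus held the places before Akap4. Odf4 and Ropn1l had an r of 0.993 with each other. All points of these correlations share the 10 libraries and their ages.

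Other genes of the same structures were followed as lists. Of 8 tested paralogs and partners of the fiber genes, 4 rose in PND 7/14 (13.5% of all genes), 5 in PND 17/21 (9.29% of all) and 4 in PND 21/28 (7.37% of all), with none lower, and all 8 were higher in PND 7/28 (32.2% of all). Spata6, needed for the junction of head and tail, had the highest level, 3.95 and 4.36 RPKM in the lower and higher PND 7 mouse and 105.6 and 125.9 at PND 28, a log2 fold change of 5.11 ± 0.26. Odf3l1, a paralog of Odf3, was at 0 at PND 7 and between 32.0 and 48.5 RPKM at PND 28, at least 298-fold higher.

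Of 14 other genes of the fibrous sheath and of glycolysis in it, 9 rose in PND 7/14 (13.5% of all genes), 10 in PND 17/21 (9.29%) and 7 in PND 21/28 (7.37%), with none lower, and 13 were higher in PND 7/28 (32.2%). Ldhc, the lactate dehydrogenase of germ cells, reached 2994 and 3269 RPKM at PND 28, above each of the 9 genes, from at most 0.115 RPKM at PND 7. Pgk2, the phosphoglycerate kinase of germ cells, was at 0 at PND 7 and at least 6148-fold higher at PND 28. Of 15 tested genes of the radial spokes and axoneme, 14 rose in PND 7/14, 10 in PND 17/21 and 4 in PND 21/28, and all 15 were higher in PND 7/28, beside the same shares of all genes, among them Rsph1, a spoke head gene (6.43 ± 0.39), and the tektin gene Tekt3, at 0 at PND 7 and at least 941-fold higher.

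The genes of protein kinase A, which the sheath anchors, differed among themselves. Of its 6 subunits 0 were DE in PND 7/14, where 2275 of all 16860 genes rose and 916 fell. Prkar1a (0.68 ± 0.19, adjusted p = 0.0301) and Prkacb (-0.74 ± 0.24, adjusted p = 0.0476) changed there, but by less than 2-fold. Prkar2a, a regulatory subunit of type II, fell in PND 17/21 (-1.07 ± 0.25, adjusted p = 0.0214), where 1.05% of all genes did, rose in PND 21/28 (3.05 ± 0.26, adjusted p = 0.000196) and was 1 of the 6 genes whose last step was larger than the one before (4.12 ± 0.47, adjusted p = 0.0237). No other subunit was DE in PND 17/21 or PND 21/28. In PND 7/28 2 rose (Prkaca and Prkar2a) and 2 fell (Prkacb and Prkar2b, the latter by -1.69 ± 0.28), beside 32.2% of all genes that rose and 23.4% that fell. Prkar1a had the highest level of the 6 and a value of 0.73 ± 0.19 in PND 7/28, under the 2-fold threshold. Of 13 other A-kinase anchors 4 rose and 4 fell in PND 7/28, beside the same 32.2% and 23.4% of all genes. Akap12 rose by 1.80 ± 0.39, and Akap14, an anchor of axonemes, stayed at or below 3.86 RPKM and was at least 36.1-fold higher at PND 28 than the floor of PND 7.

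Of 4 relatives of the dimerization domain and rhophilins, 1 rose in each of PND 7/14 (Riiad1), PND 17/21 (Cabyr) and PND 21/28 (Riiad1), and 3 in PND 7/28, beside 13.5%, 9.29%, 7.37% and 32.2% of all genes. Cabyr, a calcium-binding protein of the sheath that also counts among the sheath genes above, had a log2 fold change of 7.30 ± 0.98 in PND 7/28, and Riiad1 one of 5.67 ± 0.40. Of 6 transcription factors of spermatids 4 rose in PND 7/14 (Crem, Rfx2, Tbpl1 and Sox30), 4 in PND 17/21 and 2 in PND 21/28 (Crem and Fhl5), beside the same shares. In PND 7/28 5 were higher and Taf7l was lower, with 3.53 ± 0.26 for Tbpl1 and 8.58 ± 0.89 for Fhl5, a partner of CREM. In PND 14/17 no gene of any of these lists was DE.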

How the data were processed

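RNA of mouse testes depleted of ribosomal RNA was sequenced by the authors as reads of 50 bases on a SOLiD 4 and aligned to mm9 with LifeScope 2.1. Ribosomal and transfer RNA, repeats and reads that aligned in over 10 places were dropped. The authors deposited a raw count of unique reads and an RPKM (reads scaled by exon length and by the reads counted in the library) for each Ensembl gene, and the number of exons with over 10 reads. Use of strand in the counting is not given in the sources used here.

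The 12 libraries were joined to 10 mice by summing the counts and averaging the RPKM of the barcodes of each PND 7 mouse. Symbols and positions come from GENCODE M1. Counts were tested with edgeR 4.0.16 in R 4.3.3 (TMM, filterByExpr, 16860 genes), and the SE is the log2 fold change divided by the root of F. The labels do not say whether mice share a litter, so p-values measure the spread between these mice only. Groups at 0 were set to a floor of 3 counts over both mice. Alternatives were DESeq2 1.42.0, limma 3.58.1 on log2(RPKM + 1) and log2(RPKM + 0.1), the study's criteria (p of at most 0.01, 2-fold, 10 RPKM), other scalings and filters, barcode a alone at PND 7, only the mice compared, a replicate block and each mouse left out. The code was tested on simulated data. Python 3.11.15, pandas 2.3.3, scipy 1.17.1 and matplotlib 3.10.9 were used.

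The 9 genes and all lists were chosen with earlier results of these data known, and p-values were adjusted over all genes. Named beside them were, for each list, the gene of highest mean RPKM and that of largest change in PND 7/28, marker genes and the 3 genes most like Odf1 and Akap4. Genes called in a list were also named where a count was small. Sequence runs shared by promoters were sought after the promoters were seen. Isoforms and proteins were not analysed here.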

Additional observations from a re-analysis of the deposited data

How the results depend on the processing

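Of the 9 genes 8 were called in PND 7/14, none in PND 14/17, all in PND 17/21 and PND 7/28 and 6 in PND 21/28. Their number was within 1.5 times of this under RLE or total scaling, the filter at 1 CPM, barcode a alone, only the mice compared, when mitochondrial genes and small structural RNAs were dropped, and under DESeq2 (5 in PND 21/28). PND 7/28 gave 9 under all alternatives. In PND 7/14 limma on log2(RPKM + 1) called 3 and the study's criteria 4, and in PND 17/21 limma called 5 with either pseudocount. In PND 21/28 limma on log2(RPKM + 0.1) called 0. Without a filter on low counts, 5 were called in PND 14/17, all lower (0.78% of all genes), and 1 in the difference of steps (Ropn1, lower, 1.07% of all genes), and the cause was not tested. Leaving out a mouse gave 6 to 8 calls in PND 7/14, 0 to 4 in PND 14/17, 1 to 9 in PND 17/21, from 0 to 6 in PND 21/28 and 0 in the difference of steps, and where an age had 1 mouse, that mouse was assumed to vary like the others.

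Values that changed sign were not called. With a mouse left out, the values in PND 14/17 lay between -0.82 and 0.45 for Odf2, -2.53 and 0.23 for Akap3, -3.28 and 0.35 for Odf3, -0.28 and 0.28 for Spa17, -3.50 and 1.09 for Ropn1 and -3.65 and 0.69 for Akap4, each highest without PND 14 mouse 1 except Spa17 (-0.13). Spa17 was -0.037 there with library totals, -0.015 with the replicate block, -0.068 and -0.069 with limma at pseudocounts of 1 and 0.1 and -0.068 under the study's criteria. In the difference of steps Akap4 was -0.011 with RLE, -0.10 with totals, -0.025 when mitochondrial genes and small structural RNAs were dropped, and between -0.35 and 0.48 with a mouse left out. Spa17 was -0.035 there with totals, -0.036 and -0.045 with limma and -0.036 under the study's criteria, and between -0.23 and 0.33 with a mouse left out, when Odf2 lay between -2.63 and 0.16. Scaling by totals moved the median of all genes by -0.22 in PND 21/28, -0.32 in PND 7/28 and -0.11 in the difference of steps, and RLE by 0.10 in PND 17/21 and 0.17 in PND 7/28.

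Mouse numbers did not pair the mice across all ages: deviations of same-numbered mice correlated between -0.17 (PND 14 and 17) and 0.34 (PND 14 and 21). At 0.34, mouse 1 of PND 14 and mouse 1 of PND 21 departed from mouse 2 in part in the same way. The source of this shared part was not tested. With the number as a replicate block the number of calls in the set was the same in each comparison, with 1571 genes in all in PND 17/21 against 1743 without it. With 2 mice an age, a crossed block for PND 14/17, added after the data were seen, called 0 of the set and 3 genes in all. With 3994026 counts in PND 17 mouse 2, a gene at 0 there could be as high as 0.726 CPM.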
